A study of Mus musculus with 4 samples.

Results

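Sterol and fatty acid synthesis genes were followed across 4 states of mouse bone-marrow-derived macrophages, cells matured from marrow with L929-conditioned medium, which supplies the growth factor M-CSF. The genes were taken from a list of 33 enzymes, sensors and carriers of lipid synthesis, drawn up as genes that SREBP transcription factors regulate. Whether SREBP regulates each of them was not tested. Of these, 31 had a probe annotated with 1 gene symbol and were measured, among 19938 such genes in the series. Acat2 and Soat1 were not analysed here. The cells came from female BALB/c mice and were given LPS, zVAD and Nec-1 together, LPS and zVAD, LPS alone, or nothing (Control). LPS, a ligand of the receptor TLR4, was used at 10 ng/ml, zVAD, an inhibitor of caspases, at 50 µM and Nec-1, an inhibitor of the kinase RIPK1, at 30 µM. The labels state neither treatment times nor the number of animals, and no array of zVAD or Nec-1 without LPS was analysed.

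SREBP proteins are transcription factors that are made as precursors in the membrane of the endoplasmic reticulum. When the membrane is rich in sterols, INSIG proteins hold the escort protein SCAP and its SREBP cargo in place. When sterols are scarce, SCAP carries SREBP to the Golgi, where it is cut, and its released part enters the nucleus. SREBP-2, the product of Srebf2, mainly drives cholesterol synthesis genes, and SREBP-1, the product of Srebf1, mainly drives fatty acid synthesis genes. In macrophages, activation by Toll-like receptors is known to remodel both branches.

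Each condition had 1 array, so no test was possible, no replicate error could be given, and precision is limited by how few arrays there are. Values are log2 signals per gene, and a difference of 1 is a 2-fold ratio between single arrays. Signals are compared for 1 gene across arrays and not between genes. In counts, higher or lower means by at least 2-fold, a rule of size and not a test. The background for each count is the same count over the 12203 genes that passed a low-signal filter, which asks for a log2 signal of at least 6.47 on any of the arrays. All 31 measured genes passed it, and none had a signal under that level on any array. Elovl6 with LPS/zVAD/Nec-1 was the lowest, at 6.89, and Insig1 with LPS/zVAD the highest, at 12.64. Array medians lay between 6.41 and 6.52.

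The macrophage label was checked with cell type markers. Of 11 macrophage markers, 10 passed the filter, and the median log2 signal of the 11 was 12.69 with LPS/zVAD/Nec-1, 12.24 with LPS/zVAD, 12.74 with LPS and 12.44 in Control. Cd163, a scavenger receptor of some resident macrophages, was under the filter level. Adipocyte markers were of interest as a source of lipid synthesis transcripts. Of 5, 2 passed the filter, Plin1 and Cidec, with signals of at most 6.99 on any array, and 3 were under it, Retn and the defining Adipoq and Lep. The list median was 6.41, 6.15, 6.39 and 6.38 in the same order. Of the other lists, 4 of 5 B cell, 5 of 6 T and NK cell, both erythroid, 1 of 6 stromal and 1 of 8 neutrophil markers were under it. The neutrophil median was 9.01, 8.41, 9.06 and 8.81, and the stromal median 7.33, 6.91, 6.91 and 7.06. In RNA of a whole culture, a change in the share of a cell type cannot be told apart from a change in RNA per cell.

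The plot of signals by gene shows all 31 genes on the 4 arrays. Control was the highest array for 26 of them, and it was the lowest for 3, Ggps1, Insig2 and Acss2. LPS/zVAD was the highest for 4, and LPS/zVAD/Nec-1 for 1. The lowest signal was on the LPS/zVAD/Nec-1 array for 15 genes, on LPS/zVAD for 9 and on LPS for 4.

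**Figure D1:**
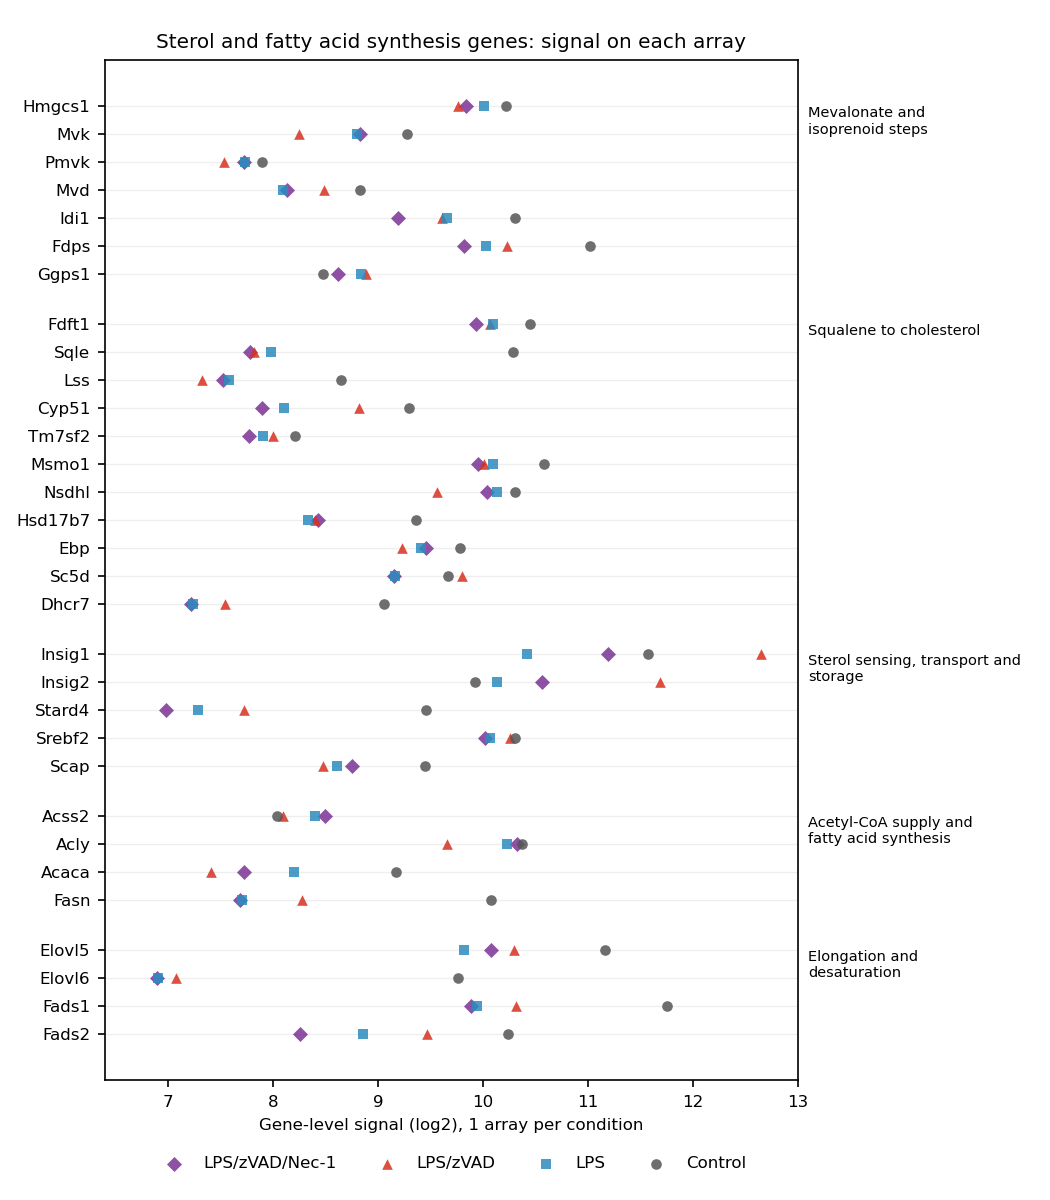
Gene-level signal (log2, horizontal axis) of the 31 measured genes (rows, grouped by role) with LPS/zVAD/Nec-1 (diamonds), LPS/zVAD (triangles), LPS (squares) and in Control (circles), 1 array each. Control is the rightmost point for 26 genes, and the LPS/zVAD point is rightmost for Insig1 and Insig2.

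The LPS array was set against Control to describe the response of these genes to LPS. With LPS, 12 of the 31 lipid synthesis genes were lower and 0 higher by at least 2-fold. Over all 12203 genes, 7.20% were lower and 8.24% higher. At 1.5-fold, 17 were lower and 0 higher, against 17.3% and 14.4% of all genes. The median log2 ratio of the 31 was -0.73, against -0.12 over all genes, and 28 of the 31 ratios were below 0. With each array centred on its median, 10 of 31 were lower, and the medians were -0.63 for the 31 genes and -0.01 for all genes. Over all genes, 698 were lower with centring, against 879 as deposited. The ratios ran from -2.85 (Elovl6) to 0.36 (Ggps1). Of the markers past the filter, 1 of 10 macrophage, 2 of 7 neutrophil and 1 of 5 stromal genes were higher in this comparison, and 0 were lower. Their part in the result was not tested.

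**Figure D2:**
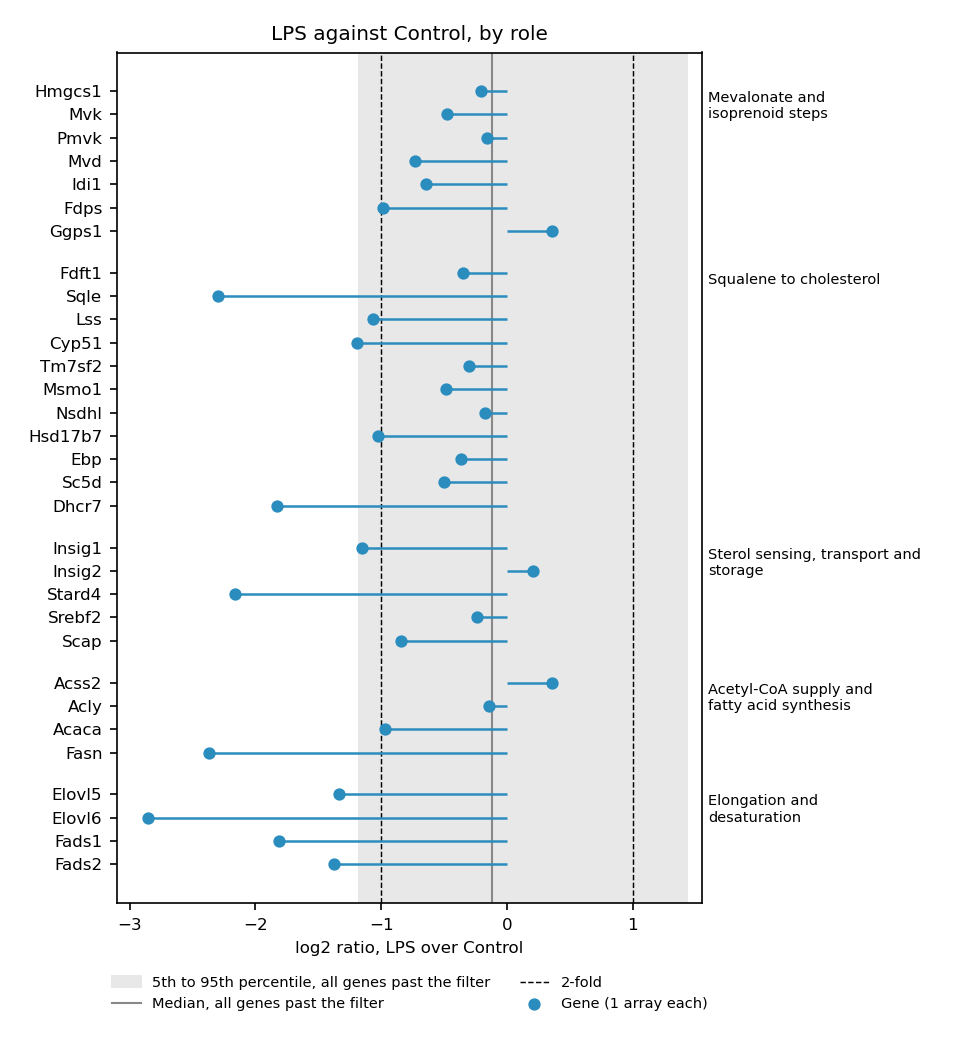
log2 ratio of LPS over Control (horizontal axis) for each of the 31 genes (rows, by role), with dashed lines at 2-fold, a grey band from the 5th to the 95th percentile of the 12203 genes past the filter and a line at their median of -0.12. All 4 elongation and desaturation genes lie beyond the 2-fold line on the lower side, as do 7.20% of the 12203 genes. Of the 7 mevalonate and isoprenoid genes 0 do, a count near that share.

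The enzymes that lengthen and desaturate fatty acids were the role in which every measured gene passed the 2-fold mark, 4 of 4, with a median log2 ratio of -1.59. Over all genes, 7.20% were lower by at least 2-fold. The role holds only listed genes, and related enzymes outside the 31 were divided. Scd2, a desaturase, was also lower, with a log2 ratio of -2.27. Scd1 (-0.60), Elovl1 (-0.40), Tecr (-0.52), Hacd3 (-0.07) and Hsd17b12 (0.06), of desaturation and elongation, stayed within 2-fold. Elovl6, an elongase of saturated and monounsaturated fatty acids, had log2 signals of 6.91 with LPS and 9.76 in Control, a 7.21-fold lower signal. Fads1, a desaturase of polyunsaturated fatty acids, stood at 9.95 with LPS and 11.76 in Control, 3.50-fold lower. These ratios were wider than those of the other desaturase and elongase. Fads2, the desaturase at the entry of the polyunsaturated pathway, had 8.86 with LPS and 10.24 in Control, 2.60-fold lower. Elovl5, an elongase of polyunsaturated chains, was at 9.82 with LPS and 11.16 in Control, 2.53-fold lower. The LPS signal of Elovl6 lay within 1 log2 unit of the filter level, where array ratios can be compressed.

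Upstream of them, the genes of acetyl-CoA supply and chain synthesis did not share 1 pattern. Fasn, the fatty acid synthase that builds palmitate, was at 7.71 with LPS and 10.08 in Control, 5.18-fold lower, and 0.328% of all genes had a lower ratio. Acaca, the acetyl-CoA carboxylase that makes malonyl-CoA for it, fell just short of the mark, at 8.20 with LPS and 9.17 in Control (1.95-fold lower). A further probe of Acaca had a log2 ratio of -0.69. The suppliers of acetyl-CoA were close to level: Acly, the ATP citrate lyase, had 10.23 with LPS and 10.37 in Control. Acss2, the cytosolic acetyl-CoA synthetase, was at 8.40 with LPS and 8.04 in Control, on the higher side by 1.28-fold.

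In the stretch from squalene to cholesterol, 5 of 11 genes were lower and 0 higher, against 7.20% and 8.24% of all genes. All 11 ratios were below 0 (median -0.50). Sqle, the squalene epoxidase and a control point of the pathway, was at 7.98 with LPS and 10.28 in Control, 4.92-fold lower. Dhcr7, the reductase of a closing step, had 7.24 with LPS, near the filter level of 6.47, and 9.06 in Control, 3.54-fold lower. These stood apart from Cyp51, the lanosterol demethylase, Lss, the lanosterol synthase, and Hsd17b7, a sterol keto-reductase, whose log2 ratios were -1.19, -1.06 and -1.03. Lss was within 2-fold under centring, quantile normalization and cyclic loess (-0.96, -0.98 and -0.93), and Hsd17b7 under centring and cyclic loess (-0.92 and -0.93). The other 6, Sc5d, Msmo1, Ebp, Fdft1, Tm7sf2 and Nsdhl, had ratios from -0.50 (Sc5d) to -0.17 (Nsdhl). Fdft1, the squalene synthase, had a further probe at -0.73, against -0.35 for the probe used.

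Of the 7 measured genes from acetyl-CoA units to farnesyl and geranylgeranyl diphosphate, 0 were lower or higher (median log2 ratio -0.48). Over all genes, 7.20% were lower and 8.24% higher, so a count of 0 of 7 is near the background. Fdps, the farnesyl diphosphate synthase, lay at the mark, with 10.03 with LPS and 11.02 in Control (1.98-fold lower, and a log2 ratio of -1.13 after quantile normalization). Mvd, the mevalonate diphosphate decarboxylase, and Idi1, the isomerase that follows it, had log2 ratios of -0.73 and -0.65. The second Idi1 probe gave -0.62. Mvk and Pmvk, the kinases of mevalonate, were at -0.48 and -0.16. Hmgcs1, which makes HMG-CoA for the pathway, was at 10.01 with LPS and 10.22 in Control. Ggps1, which makes geranylgeranyl diphosphate for protein prenylation, was on the higher side, at 8.84 with LPS and 8.48 in Control.

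Sensing and transport genes were divided. Stard4, a cytosolic sterol carrier, was at 7.29 with LPS, near the filter level of 6.47, and 9.45 in Control, 4.48-fold lower. Insig1 was at 10.42 with LPS and 11.57 in Control, 2.22-fold lower. Insig2, its paralog, was at 10.13 with LPS and 9.92 in Control. Scap, the escort gene, had a log2 ratio of -0.84, and Srebf2 one of -0.24.

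To describe what the genes share, their promoters were read from RefSeq (GRCm38.p6) in windows of 250 bases before to 50 after each listed start. Of the 31 genes, 26 were matched. The letters CCAAT, the box bound by NF-Y, a usual partner of SREBP, were searched on both strands and stood in a window of 22 of the 26 genes (84.6%), against 42.3% of 17492 protein-coding genes. By window, 68.8% of 32 held it, against 38.2% of all protein-coding and 37.4% of all windows. The E box CACGTG was in 6 of 26 (23.1%, against 8.91% of protein-coding genes) and TCACNCCAC, a form of the sterol regulatory element, in 1 of 26 (3.85%, against 1.41%), Hmgcs1. CCAAT was found in 7 of the 9 matched genes that were lower with LPS and in 15 of the other 17. CACGTG was in 4 of these 9 and 2 of the 17, and TCACNCCAC in 0 and 1. Differences between these groups were not tested. Matches are letters and not shown to be bound, and genes with several starts have more windows to hold one.

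The 200 bases before the start are shown for the matched sterol synthesis genes with the lowest ratios, Dhcr7, Cyp51, Lss and Hsd17b7. Hmgcs1, which holds the sterol regulatory element letters, and the paralogs Insig1 and Insig2, which the next comparisons turn on, were chosen after their values were seen. Sequences run 5′ to 3′ on the gene's strand, from the start listed first, and capitals mark the matches to these 3 motifs. A capital ATTGG is the first motif on the opposite strand.
Dhcr7 (chr7:143822967-143823166, plus strand): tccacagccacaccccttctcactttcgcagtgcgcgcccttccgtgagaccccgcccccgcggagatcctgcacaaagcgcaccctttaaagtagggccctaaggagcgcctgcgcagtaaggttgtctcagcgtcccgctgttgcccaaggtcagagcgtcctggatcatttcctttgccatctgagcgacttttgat
Cyp51 (chr5:4104698-4104897, minus strand): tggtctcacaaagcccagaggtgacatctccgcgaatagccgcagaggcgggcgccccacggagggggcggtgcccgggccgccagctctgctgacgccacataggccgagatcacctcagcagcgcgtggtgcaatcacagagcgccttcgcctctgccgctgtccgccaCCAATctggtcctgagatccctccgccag
Lss (chr10:76531405-76531604, plus strand): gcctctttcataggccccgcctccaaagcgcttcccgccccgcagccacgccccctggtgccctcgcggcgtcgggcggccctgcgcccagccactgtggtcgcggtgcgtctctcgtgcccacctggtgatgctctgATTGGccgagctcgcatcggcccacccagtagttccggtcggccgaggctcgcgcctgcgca
Hsd17b7 (chr1:169969206-169969405, minus strand): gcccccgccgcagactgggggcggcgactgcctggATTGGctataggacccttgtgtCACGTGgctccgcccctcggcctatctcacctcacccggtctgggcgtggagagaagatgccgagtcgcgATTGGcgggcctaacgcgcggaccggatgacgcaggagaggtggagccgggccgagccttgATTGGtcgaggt
Hmgcs1 (chr13:119690151-119690350, plus strand): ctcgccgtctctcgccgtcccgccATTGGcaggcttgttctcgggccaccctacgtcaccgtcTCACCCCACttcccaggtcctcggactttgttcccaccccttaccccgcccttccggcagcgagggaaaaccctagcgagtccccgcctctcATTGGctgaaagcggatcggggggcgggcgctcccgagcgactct
Insig1 (chr5:28071212-28071411, plus strand): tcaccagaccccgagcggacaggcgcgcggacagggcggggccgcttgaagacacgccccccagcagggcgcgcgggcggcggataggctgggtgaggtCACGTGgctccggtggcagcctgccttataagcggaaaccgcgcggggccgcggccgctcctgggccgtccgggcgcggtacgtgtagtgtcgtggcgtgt
Insig2 (chr1:121332590-121332789, minus strand): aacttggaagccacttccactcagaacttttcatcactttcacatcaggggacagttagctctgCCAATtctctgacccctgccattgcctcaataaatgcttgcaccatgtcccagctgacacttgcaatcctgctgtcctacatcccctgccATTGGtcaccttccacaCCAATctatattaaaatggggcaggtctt
Cyp51, Lss and Hsd17b7 carry CCAAT letters in these stretches, 29 bases before the start in Cyp51 and 62 in Lss, counted to the leftmost base of the match. Hsd17b7 has 3 such matches and a CACGTG at 143 bases. The Dhcr7 stretch holds none of the searched letters, although among the windows of its 3 starts both CCAAT and CACGTG are found elsewhere. In Hmgcs1 the sterol regulatory element letters begin 137 bases before the start, between 2 CCAAT matches at 176 and 45. Within the printed 200 bases, Insig1 has CACGTG at 101 bases and no CCAAT, and Insig2 has 3 CCAAT matches and no CACGTG. Insig1 has CCAAT letters at 216 bases, in the searched window but outside the printed stretch. Both paralogs thus hold CCAAT in their windows.

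The LPS/zVAD array was set against LPS, from which it differs by the addition of zVAD. Both INSIG genes were higher with zVAD, and the enzymes mostly were not: 2 of 31 genes were higher and 0 lower by at least 2-fold. Over all genes, 3.25% were higher and 3.59% lower, so both counts are near the background. Higher calls made up 47.5% of all calls as deposited, 57.8% after quantile normalization and 59.7% after cyclic loess, while the 2 genes were the same count under each scaling. The median log2 ratio of the 31 was 0.06, against -0.05 over all genes. The LPS array is the denominator here and the numerator in the comparison with Control, so the values of the 2 comparisons are not independent.

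Insig1 had the highest ratio, with a log2 signal of 12.64 with LPS/zVAD and 10.42 with LPS, 4.68-fold higher. Its ratio exceeded that of 99.5% of all genes. Insig2 was at 11.69 with LPS/zVAD and 10.13 with LPS, 2.93-fold higher, above 98.7% of genes. Over the scalings and other settings, the log2 ratio ran from 2.18 to 2.33 for Insig1 and from 1.51 to 1.67 for Insig2. Both proteins retain SCAP in the endoplasmic reticulum, and Insig1 is itself a known SREBP target. Scap stood at 8.48 with LPS/zVAD and 8.61 with LPS. Srebf2 was at 10.26 with LPS/zVAD and 10.07 with LPS.

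Among the enzymes, 3 more were higher by at least 1.5-fold, a mark that 7.96% of all genes passed on that side. Cyp51 had 8.82 with LPS/zVAD and 8.11 with LPS, Sc5d, the lathosterol desaturase, 9.80 with LPS/zVAD and 9.16 with LPS, and Fads2 9.46 with LPS/zVAD and 8.86 with LPS. Their log2 ratios were 0.72, 0.64 and 0.61, well under that of Insig1. Fasn was next at 0.57, and all 4 elongation and desaturation genes had ratios above 0, from 0.17 (Elovl6) to 0.61. Acaca was the single gene lower by 1.5-fold, at 7.41 with LPS/zVAD and 8.20 with LPS, and its further probe was also lower, at -0.71. Over all genes, 13.2% were lower by 1.5-fold. Acly and Nsdhl, a sterol dehydrogenase, were both at -0.58 and Mvk at -0.55. Sqle, among the lowest with LPS, was at 7.82 with LPS/zVAD and 7.98 with LPS, and Hmgcs1 at 9.76 with LPS/zVAD and 10.01 with LPS. The ratios within the sterol pathway ran in both directions, from -0.58 to 0.72 over 18 genes with a median of -0.04.

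The LPS/zVAD/Nec-1 array was set against LPS/zVAD, from which it differs by the addition of Nec-1. The INSIG genes and Fads2 were lower with it: 3 of 31 genes were lower and 0 higher by at least 2-fold. Over all genes, 3.32% were lower and 1.14% higher, and the median log2 ratios were -0.22 for the 31 genes and 0.07 for all genes. Insig1 was at 11.19 with LPS/zVAD/Nec-1 and 12.64 with LPS/zVAD, 2.73-fold lower. Insig2 was at 10.56 with LPS/zVAD/Nec-1 and 11.69 with LPS/zVAD, 2.18-fold lower. Fads2 had 8.25 with LPS/zVAD/Nec-1 and 9.46 with LPS/zVAD, 2.32-fold lower. Each of the 3 stayed past 2-fold under every scaling, with log2 ratios from -1.49 to -1.42 for Insig1, -1.18 to -1.09 for Insig2 and -1.29 to -1.20 for Fads2 over all settings that give a ratio.

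The next ratios down were those of Cyp51, with 7.90 with LPS/zVAD/Nec-1 and 8.82 with LPS/zVAD (1.90-fold lower), Stard4 (-0.75 on the log2 scale), Sc5d (-0.65) and Fasn (-0.59). These complete the 7 genes lower by at least 1.5-fold, against 8.19% of all genes. On the opposite side, Acly was 1.59-fold higher, at 10.32 with LPS/zVAD/Nec-1 and 9.65 with LPS/zVAD, the single gene past 1.5-fold in that direction (7.31% of all genes). Mvk and Nsdhl followed, with log2 ratios of 0.58 and 0.48. The LPS/zVAD array enters this ratio and the one over LPS with opposite signs, so a high or low value on that array alone moves both.

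**Figure D3:**
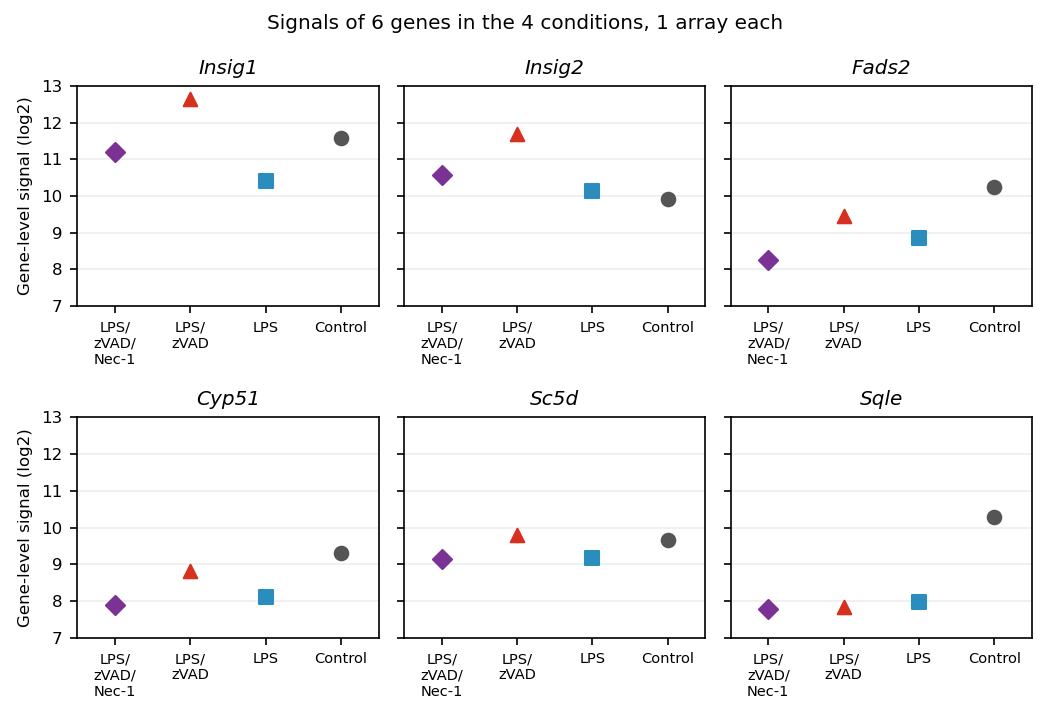
Gene-level signal (log2, vertical axis, the same range in every panel) of Insig1, Insig2, Fads2, Cyp51, Sc5d and Sqle with LPS/zVAD/Nec-1, LPS/zVAD and LPS and in Control, 1 array each. The LPS/zVAD point is the highest for Insig1 (12.64), Insig2 (11.69) and Sc5d (9.80), and for Sqle all 3 arrays with LPS lie between 7.78 and 7.98.

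The LPS/zVAD/Nec-1 array was also set against LPS, from which it differs by both inhibitors. The ratios of the 31 genes had a narrower range here than in the other comparisons, and so did those of all genes. The 5th to 95th percentile of all genes was -0.45 to 0.38 here and -0.82 to 0.68 for LPS/zVAD/Nec-1 over LPS/zVAD. By at least 2-fold, 0 of 31 were higher and 0 lower, against 0.0738% and 0.541% of all genes, so a count of 0 is near the background. The median log2 ratio was -0.05, against -0.02 over all genes. Insig1 had the highest ratio, at 11.19 with LPS/zVAD/Nec-1 and 10.42 with LPS (1.71-fold higher), above 99.8% of genes. It was the single gene higher by 1.5-fold, a mark that 0.738% of genes passed. Insig2 was next, at 10.56 with LPS/zVAD/Nec-1 and 10.13 with LPS. By the probe used for each gene, Fads2 had the lowest ratio, at 8.25 with LPS/zVAD/Nec-1 and 8.86 with LPS (1.52-fold lower), and was the single gene past that mark on the lower side (2.75% of genes). Acaca and Idi1 followed, with log2 ratios of -0.48 and -0.46, but the further Acaca probe was at -0.70, lower than Fads2 and past 1.5-fold.

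**Figure D4:**
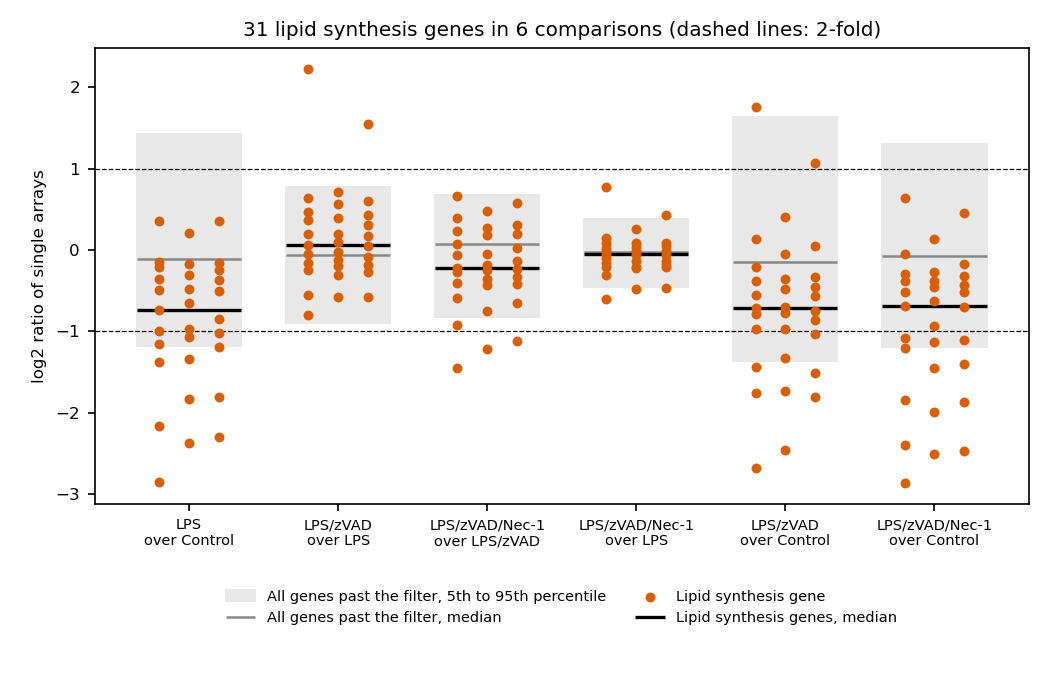
log2 ratios (vertical axis) of the 31 genes (points, spread sideways for legibility) in 6 comparisons of single arrays, with their median (black line), the median of all genes past the filter (grey line) and the 5th to 95th percentile of those genes (grey box). The black median lies between -0.73 and -0.69 in the comparisons with Control and between -0.22 and 0.06 in the others, and Insig1 and Insig2 are the 2 points above the upper dashed 2-fold line for LPS/zVAD over LPS.

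The arrays with inhibitors were also set against Control, and most of the genes past 2-fold were lower. These comparisons were added after the values were seen, and both use the same Control array as LPS does. With LPS/zVAD/Nec-1, 13 of 31 were lower than in Control and 0 higher (7.68% and 6.85% of all genes). With LPS/zVAD, 9 were lower and 2 higher (10.7% and 8.79% of all genes, where higher calls made up 45.1% of calls as deposited and 58.7% after cyclic loess). At 1.5-fold, LPS/zVAD/Nec-1 had 17 of 31 lower and LPS/zVAD also 17 (18.3% and 24.7% of all genes), while 1 and 2 were higher (11.9% and 14.4%). Elovl6 was at 6.89 with LPS/zVAD/Nec-1, 7.08 with LPS/zVAD, 6.91 with LPS, against 9.76 in Control. Sqle was at 7.78, 7.82 and 7.98 in that order, against 10.28 in Control. For both genes the arrays with LPS lay close together and far from Control. The Elovl6 signals with LPS were all near the filter level of 6.47, where array ratios can be compressed. Stard4 varied more, at 6.98, 7.72 and 7.29, against 9.45 in Control, and so did Fasn, at 7.68, 8.27 and 7.71, against 10.08 in Control. Insig2 was 3.39-fold and Insig1 2.10-fold higher with LPS/zVAD than in Control, although Insig1 came to a log2 ratio of 0.96 after quantile normalization. Acaca was 2.73-fold lower with LPS/zVAD/Nec-1 and 3.39-fold lower with LPS/zVAD than in Control.

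Further genes of the pathway came from a separate list of SREBP targets and lipid synthesis genes, of which 25 were measured and 20 passed the filter. With LPS over Control, 3 were lower and 0 higher, against 7.20% and 8.24% of all genes, with a median log2 ratio of -0.40 over the 25. They were Scd2, a stearoyl-CoA desaturase, Mid1ip1, which promotes the assembly of acetyl-CoA carboxylase, and Tmem97, a sterol-responsive membrane protein, at -2.27, -1.68 and -1.45. With LPS/zVAD over LPS, Fabp5, a fatty acid binding protein, and Mid1ip1 were higher (3.25% of all genes), at 1.32 and 1.16, and Scd2 was lower (3.59%), at -1.24. With LPS/zVAD/Nec-1 over LPS/zVAD, Scd2, Mid1ip1 and Fabp5 were lower, at -1.15, -1.12 and -1.07, and 0 were higher, against 3.32% and 1.14% of all genes. Mid1ip1 had log2 signals of 9.18 with LPS/zVAD/Nec-1, 10.30 with LPS/zVAD, 9.14 with LPS, against 10.83 in Control. Scd2 differed by over 2-fold between any pair of arrays, at 7.62 with LPS/zVAD/Nec-1, 8.77 with LPS/zVAD, 10.01 with LPS, against 12.28 in Control. It was 5.24-fold lower with LPS/zVAD/Nec-1 than with LPS. Scd1, its paralog, was at 5.81 with LPS/zVAD/Nec-1, 6.69 with LPS/zVAD, 6.49 with LPS, against 7.08 in Control. It was 2.42-fold lower with LPS/zVAD/Nec-1 than in Control, and past 2-fold under each scaling. Its LPS/zVAD/Nec-1 signal was under the filter level of 6.47. Srebf1 was at 8.63, 8.88 and 8.93, against 9.27 in Control. Npc1, the lysosomal cholesterol exporter, was at 10.82, 11.31 and 10.68, against 11.31 in Control, and Lpin1, a phosphatidate phosphatase, was under the filter level, at 5.67, 5.78 and 5.42, against 6.05 in Control. Against Control, 0 of the 20 were higher and 6 lower with LPS/zVAD/Nec-1 (6.85% and 7.68% of all genes). With LPS/zVAD, 1 was higher and 4 lower (8.79% and 10.7%). The higher gene was Fabp5, 2.22-fold higher and past 2-fold under each scaling. Aacs was 2.10-fold lower with LPS/zVAD/Nec-1 than in Control, Gpam 2.18-fold lower there and 2.58-fold lower with LPS/zVAD, and Hacd3 2.05-fold lower with LPS/zVAD. Some of these calls ended under other scalings. Aacs came to a log2 ratio of -0.95 after quantile normalization and -0.93 after cyclic loess, and Gpam with LPS/zVAD/Nec-1 to -0.995 after cyclic loess. Hacd3 was at -0.98 with centred arrays and after quantile normalization, and at -0.83 after cyclic loess.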

How the data were processed

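Total RNA from 4 macrophage cultures was hybridised to Affymetrix arrays, 1 per condition. The authors deposited log2 signals per gene. Per the submitters' processing notes, Affymetrix Expression Console produced them, and the range of the values shows the log scale. For its version, the background correction, the normalization between arrays and the genome build, nothing is given in the sources used here.

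Of 35556 probes, 21789 had 1 gene symbol in the platform annotation, 1621 several and 12146 none. Where several probes named a gene, the one with the highest mean over the arrays was used. Symbol and gene identifier of all 31 measured genes matched RefSeq (GRCm38.p6). Genes were filtered at the median of all values. Differences between single arrays were counted at 2-fold, and no test was made. The counting code was tested on simulated data.

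The genes, their 5 roles and the 5 further pathway lists were chosen with earlier results of these data known. From the further lists, genes are named at 2-fold or more in a comparison, with 12 key genes, of which 8 were measured. Elovl1, Tecr and Hsd17b12 are named besides, as enzymes of elongation.

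Samples were grouped by title. Alternatives were 3 scalings (centring, quantile, cyclic loess with limma 3.58.1 in R 4.3.3), no filter or one at the 60th percentile, the mean of a gene's probes, a floor at the filter level, and thresholds of 1.5-fold and 3-fold. Some items of the pathway are not reported here.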

Additional observations from a re-analysis of the deposited data

How the results depend on the processing

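No paired analysis was possible because each condition has 1 array. Of 108 recomputed counts of the 31 genes, 93 stayed within 1.5 times the reported count, and of 42 recomputed medians 37 stayed within 0.1. Of 1302 recomputed ratios of single genes, 13 crossed the 2-fold mark, and 0 of those past it changed sign. The other counts moved with the threshold, apart from 1. At 3-fold, 6 genes were lower with LPS than in Control, against 269 of all 12203 genes. With LPS/zVAD, 1 was higher than with LPS (144 of all genes). With LPS/zVAD/Nec-1, 0 were lower than with LPS/zVAD (109 of all genes). These last counts, 1 and 0 of 31, are near the background. At 1.5-fold, LPS/zVAD had 5 higher and 1 lower than LPS, 1 was higher and 7 lower with LPS/zVAD/Nec-1 than with LPS/zVAD, and 1 was higher and 1 lower with LPS/zVAD/Nec-1 than with LPS. Against Control, LPS/zVAD had 17 lower at 1.5-fold and, at 3-fold, 1 higher and 5 lower (645 and 344 of all genes). The count of 1 higher with LPS/zVAD at 3-fold is near the background. LPS/zVAD/Nec-1 had 1 higher at 1.5-fold and 7 lower at 3-fold (258 of all genes lower at 3-fold). The exception was quantile normalization, which left 1 gene higher with LPS/zVAD than in Control. For LPS over Control, the median log2 ratio of the 31 genes was -0.63 with centred arrays and -0.62 after cyclic loess. Cyclic loess gave 0.17 for LPS/zVAD over LPS, -0.54 for LPS/zVAD over Control and -0.56 for LPS/zVAD/Nec-1 over Control; the cause was not tested. With 1 array per condition, the error of each ratio is unknown, and ratios near 2-fold, such as those of Fdps, Acaca, Lss and Hsd17b7 with LPS, are not separated from it.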

Other observations

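Genes of oxysterols and of LXR, the sterol-sensing factors that drive cholesterol export, formed a further list. Of 11 measured, 10 passed the filter. With LPS over Control, where 8.24% of all genes were higher and 7.20% lower, 2 were higher, Nr1h3, which encodes the sterol sensor LXR alpha, and the exporter Abcg1, and 1 was lower, the cholesteryl ester hydrolase Nceh1, with log2 ratios of 1.62, 1.04 and -1.02. Abcg1 was at 0.96 after quantile normalization, and Nceh1 at -0.92 with centred arrays. With LPS/zVAD over LPS, 4 were lower and 0 higher, against 3.59% and 3.25% of all genes. They were the cholesterol exporter Abca1 at -2.10, Mylip, a ubiquitin ligase of lipoprotein receptors, at -1.56, Nr1h3 at -1.52 and Abcg1 at -1.22. With LPS/zVAD/Nec-1 over LPS/zVAD, Nr1h3 and Mylip were higher, at 1.11 and 1.09, and 0 were lower (1.14% and 3.32% of all genes). Abcg1 fell just short of the mark, at 0.96. Abca1 was not higher. It stood at 7.92 with LPS/zVAD/Nec-1, 7.93 with LPS/zVAD, 10.03 with LPS, against 9.82 in Control. With LPS/zVAD/Nec-1 it was 4.33-fold lower than with LPS. Ch25h, which makes an oxysterol, was at 12.03, 11.84 and 11.85, against 11.25 in Control.

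In the list of SREBP processing and turnover, 0 of 9 genes past the filter were at 2-fold in the 4 main comparisons. Over all genes, at most 8.24% were past it in any 1 direction, so a count of 0 is near the background. The median log2 ratio of the 10 measured was -0.08 with LPS over Control. Rnf139, a ubiquitin ligase of the sterol pathway, was on the higher side with LPS, at 10.68 with LPS and 9.70 in Control, and was 2.15-fold higher with LPS/zVAD/Nec-1 and 2.63-fold higher with LPS/zVAD than in Control. Mbtps1, the protease that first cuts SREBP, was 2.29-fold lower with LPS/zVAD than in Control, and at -0.99 on the log2 scale after cyclic loess. Isoprenoid side branches (10 genes past the filter) and mitochondrial and ketone relatives (4) had 0 genes at 2-fold in those 4 comparisons, which is also near the background, with medians of 0.02 and -0.12 for LPS over Control.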
